A study of Rattus norvegicus with 2 samples.

Results

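The proteasome is the protease complex that degrades proteins tagged with ubiquitin. Its genes were compared between bladder tumors of rats given the methylated arsenical dimethylarsinic acid (DMA) and the bladders of control rats. The genes were taken by symbol, as all those named Psma to Psmg followed by a number, and each was represented by its probe set with the highest mean signal over both arrays. This gave 65 of the 22093 genes that had a probe set with a single symbol. Of the 65, 48 encode subunits, activators, an inhibitor or assembly factors of the proteasome, and 17 are like loci, pseudogenes or genes that share only the symbol pattern. On either array a signal of 100 or more was recorded for 53 of the 65 genes, and for 46 of the 48.

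All rats were male F344, an inbred strain. From 10 weeks of age they received drinking water with 0 ppm DMA (Control) or 200 ppm DMA (DMA-tumor) for 2 years, up to 114 weeks of age. The Control array held RNA pooled from 5 bladders, labelled as epithelium, and the DMA-tumor array RNA pooled from 6 carcinomas, although the methods of the study name fewer tumors and whole bladder tissue for the controls. The tumors were not examined by histology. Each group had 1 array, so no replicate error or p-value can be given for any difference below, and precision is limited by this number of arrays. Differences are given on the log2 scale as DMA-tumor minus Control, signals on the linear scale, and a gene is said to be called at a fold when its ratio is at least that fold.

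The urothelial markers went in both directions. Of 10 such genes, 9 had a probe set and were kept, with a median log2 difference of -1.55. In the tumors 5 were at least 2-fold lower and 1 at least 2-fold higher. Among all genes whose signal reached 100 on either array, the shares were 10.6% and 8.90%. Upk2, a uroplakin of the umbrella cell surface, had signals of 523348 (Control) and 107621 (DMA-tumor). Krt20, a keratin of umbrella cells, fell from 5761 to 77.9, under 100 in the tumors, while Krt14, a basal keratin, had signals of 2865 and 133451 (5.54). The Control array also held strong signals of bladder wall markers. All 6 fibroblast markers and all 6 smooth muscle markers were lower in the tumors, with summed signals of 145897 and 1278 for the fibroblast list and of 55666 and 4184 for the muscle list. Among these markers, Lum, Pdgfra, Des and Cnn1 were under 100 in the tumors. Of the 8 leukocyte markers that reached a signal of 100 on either array, 7 were lower, against 55.6% of all genes that reached it. Cd2 (signals of 155 and 83.8) did so only on the Control array, which fixed its direction. The summed signal of the leukocyte list, over 13 genes with a probe set, was 10103 for Control and 3283 for DMA-tumor. Such sums are weighted to the genes with the brightest probe sets. On the Control array these were Cd74 and Cd4 for the leukocyte list and Dcn for the fibroblast list. In pooled tissue, fewer cells of a type and less RNA per cell cannot be told apart, and the part of this makeup in the differences below was not tested.

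The proteasome consists of a barrel, the 20S core, whose outer alpha rings gate the entry of substrates and whose inner beta rings hold the proteolytic sites. The 19S regulatory particle caps the core, and its base unfolds substrates with a ring of ATPases while its lid removes ubiquitin. Interferon gamma induces 3 alternative catalytic subunits, Psmb8, Psmb9 and Psmb10, and the activator subunits Psme1 and Psme2, which together form the immunoproteasome. This form is known for producing peptides for display on MHC class I molecules and is abundant in immune cells. In mammalian cells the transcription factor NFE2L1 raises the subunit genes when proteasome activity is short, and NFE2L2, the regulator of antioxidant genes, has been linked to subunit expression in mouse.

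By their medians the constitutive core and 19S subunits had similar signals on both arrays, while all 5 immunoproteasome genes had negative differences. The largest of these were those of Psmb9, Psmb8 and Psmb10, and Psme2 (-0.28) was not as low as the constitutive Psmb5 (-0.52). As deposited, the constitutive Psmb6 (-1.43) was the lowest of all members. The median log2 difference was -0.03 over the 14 constitutive 20S core subunits, -0.18 over the 17 subunits of the 19S particle and -0.95 over the 5 immunoproteasome genes. Over all 12074 genes whose signal reached 100 on either array (kept genes), the median was -0.08. The core median thus exceeded the immunoproteasome median by 0.92, and the 19S median exceeded it by 0.77. The 14 core subunits were evenly divided in sign, with 7 positive and 7 negative differences. Of the 19S subunits, 6 were positive and 11 negative, and of the immunoproteasome genes 0 were positive. Negative differences were recorded for 55.6% of all kept genes.

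Few members passed 2-fold in either direction. In the tumors 1 of the 53 kept members was at least 2-fold higher, the activator gene Psme4, against 8.90% of all kept genes. At least 2-fold lower were 3 of the 53, Psmb6, Psmb9 and Psmb8, against 10.6% of all kept genes. As shares of the members these were 1.89% and 5.66%. The members nearest to the 2-fold limit without passing it were Psmb10 (-0.95), the assembly factor gene Psmg4 (-0.91) and the lid gene Psmd11 (0.91). At 1.5-fold, 4 members were higher (7.55%) and 8 were lower (15.1%), against 16.7% and 21.5% of all kept genes. Of those 8, 4 were immunoproteasome genes, and 1 of the 4 higher was Psmc3ip, which shares only the symbol pattern. The study's call criteria were a ratio of 2 together with a Z-score of 2 or beyond. With Z-scores taken here over all kept genes, 0 members were higher and 0 lower, against 2.53% and 2.38% of all kept genes. The study does not state which probes its Z-score was taken over, so its own calls can differ. A call with the Z-score used here needed a log2 difference of 1.97 or more, or of -2.11 or less. The differences of the 53 members had a standard deviation of 0.52, and those of all kept genes one of 1.02. For scale, 1276 olfactory and vomeronasal receptor genes, taken as silent in bladder and of low signal, had a standard deviation of 0.34, with the central 95% of their differences between -0.81 and 0.52.

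**Figure D1:**
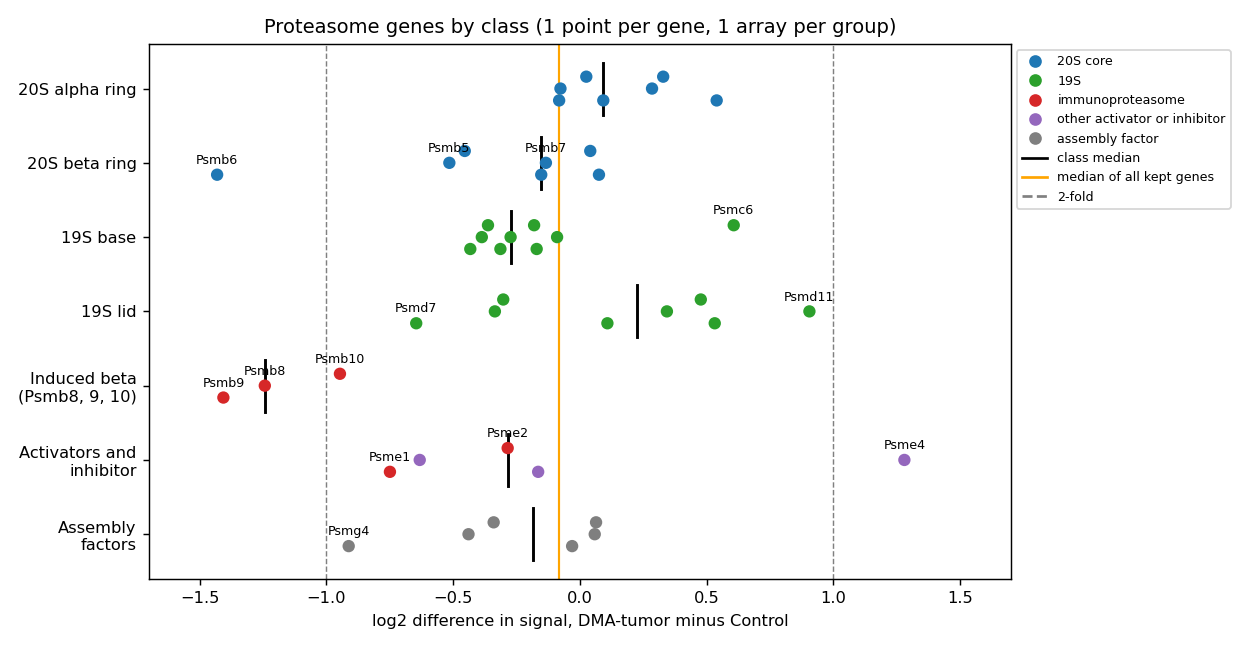
Log2 difference in signal (DMA-tumor minus Control) on the horizontal axis for each kept gene of 7 proteasome classes, with points coloured by group, black bars at class medians, an orange line at the median of all kept genes (-0.08) and dashed lines at 2-fold. The induced beta subunits and Psmb6 lie at the left, Psme4 lies beyond 2-fold at the right, and most other subunits lie within 2-fold.

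The alpha ring, which closes the ends of the core, differed little between the arrays. All 7 constitutive alpha genes lay between -0.08 and 0.54 with a median of 0.09. Psma3 had signals of 2553 (Control) and 3711 (DMA-tumor), a log2 difference of 0.54. Next came Psma4 (0.33), with signals of 1283 and 1611, and Psma2 (0.28), with 5001 and 6092. Psma6 (0.09) and Psma1 (0.03, signals of 6721 and 6840) were close to 0. The lowest alpha genes were Psma5, with signals of 1545 and 1459, and Psma7, with 1319 and 1251, at -0.08 each, equal to the median of all kept genes to 2 decimals. No alpha gene was called at 1.5-fold. Psma8, the testis counterpart of Psma7, was below 100 on both arrays, at 49.1 and 45.9.

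The beta ring varied more, and its 3 catalytic genes differed from each other. The 7 constitutive beta genes had a median of -0.15 and ranged from -1.43 to 0.08. Psmb6, the caspase-like subunit of the beta 1 position, had signals of 3823 and 1417, which is 2.70-fold lower in the tumors (-1.43). Only 5.52% of all kept genes had a difference that low or lower, and as deposited Psmb6 was the lowest of all 53 kept members. After quantile normalization Psmb9 (-1.62) was slightly lower than Psmb6 (-1.60). Psmb5, the chymotrypsin-like subunit of the beta 5 position, had signals of 6495 and 4544 (-0.52). Psmb7, the trypsin-like subunit of the beta 2 position, had signals of 12343 and 11248 (-0.13). Psmb6 thus stood apart from the other catalytic genes of the core. Among the structural beta genes, Psmb4 had signals of 1506 and 1099 (-0.45) and Psmb1 signals of 411 and 369 (-0.15). The highest of the ring were Psmb3, with 5916 and 6087 (0.04), and Psmb2, with 9348 and 9849 (0.08).

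**Figure D2:**
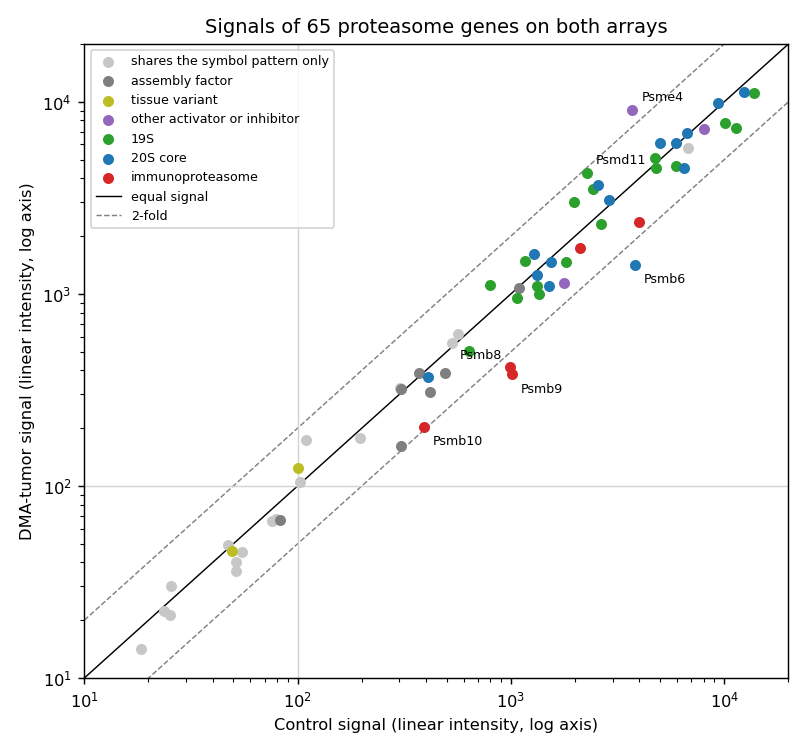
Control signal (horizontal) against DMA-tumor signal (vertical), both linear intensities on log axes, for all 65 genes, coloured by group, with a solid line at equal signal, dashed lines at 2-fold and grey lines at a signal of 100. Psmb6, Psmb8 and Psmb9 lie below the lower dashed line, Psme4 lies above the upper line, and the remaining genes lie between the lines.

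The induced subunits were lower in the tumors at each catalytic position. Psmb9, which takes the place of Psmb6, had signals of 1010 and 381, 2.65-fold lower (-1.41). Psmb8, which takes the place of Psmb5, had signals of 991 and 418, 2.37-fold lower (-1.24). Psmb10, which takes the place of Psmb7, had signals of 392 and 203, 1.93-fold lower (-0.95). Differences at or below these were recorded for 5.69%, 7.20% and 11.5% of all kept genes. A second probe set of Psmb8, with signals of 182 and 89.5, had a difference of -1.02.

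The pairs at the 3 catalytic positions did not behave alike. At the beta 5 position the log2 difference of the induced Psmb8 minus that of the constitutive Psmb5 was -0.73. At the beta 2 position the same value, Psmb10 minus Psmb7, was -0.81. At the beta 1 position, Psmb9 minus Psmb6, it was 0.02, since both genes were lower to nearly the same extent. After removal of a loess trend of the difference on signal over all probe sets, these values were -0.55, -0.46 and 0.05.

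**Figure D3:**
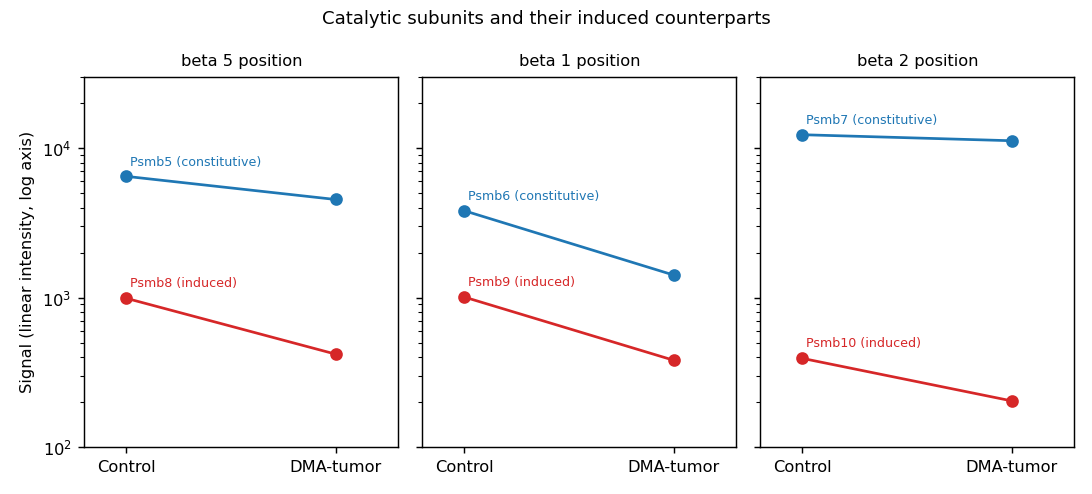
Signals (linear intensity, log axis) of the 3 constitutive catalytic subunits (blue) and their induced counterparts (red) on the Control and DMA-tumor arrays, joined by a line for each gene. All 3 induced genes slope downwards, Psmb6 slopes down as steeply as Psmb9, and Psmb7 is nearly level. Heights of different genes come from different probe sets and are not comparable, only the slopes are.

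The activators, which dock on the core in place of the 19S particle, went in both directions. Psme1, the alpha subunit of PA28, had signals of 3989 and 2373 (-0.75). Psme2, its beta partner, had signals of 2104 and 1727 (-0.28), and its second probe set gave -0.24 (signals of 1783 and 1515). The chosen Psme2 probe set is named for a chromosome other than 15, where the gene lies. Whether its probes are distinct from another locus was not tested. Of the PA28 pair, only Psme1 was called at 1.5-fold. Psme3, which forms a nuclear PA28 ring by itself, had signals of 8063 and 7194 (-0.16). Psme4, which encodes the nuclear activator PA200, had signals of 3714 and 9023, 2.43-fold higher in the tumors (1.28). A difference of that size or larger was recorded for 6.04% of all kept genes, and Psme4 was the highest of the 53 kept members. Psmf1, the proteasome inhibitor PI31, had signals of 1769 and 1141 (-0.63). Psmb11, the thymus counterpart of Psmb5, had signals of 101 and 124, near the limit of 100.

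In the 19S particle the base and the lid had medians of opposite sign. Over the 9 base genes the median was -0.27, with 8 negative differences, and over the 8 lid genes it was 0.23, with 3 negative differences. These medians were -0.32 and 0.10 after loess over all probe sets and -0.44 and 0.05 after quantile normalization. The median of all kept genes was -0.08 as deposited, -0.19 after that loess and -0.34 after quantile normalization. In each of these the lid lay above it and the base below it. The 6 ATPase genes had a median of -0.32. The lowest of the base were Psmc5 (-0.43), with signals of 1352 and 1002, Psmc1 (-0.39), with 10084 and 7711, and Psmc2 (-0.36), with 5958 and 4634. Psmc3 and Psmc4 were at -0.27 and -0.18. The exception among the ATPases was Psmc6, with signals of 1982 and 3019 (0.61), the 1 base gene called at 1.5-fold. The scaffold genes Psmd2 and Psmd1 were at -0.31 and -0.09, the latter with signals of 4793 and 4504, and the ubiquitin receptor gene Psmd4 was at -0.17, with 1070 and 951.

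The lid genes had a standard deviation of 0.53 in their log2 differences, and the base genes one of 0.32. Psmd11, a lid subunit that also contacts the core, had signals of 2267 and 4248, 1.87-fold higher in the tumors (0.91). Psmd12 had signals of 2427 and 3510 (0.53), and Psmd3 had signals of 801 and 1116 (0.48). Psmd14, the deubiquitinase of the lid, was at 0.34, while Psmd7, which pairs with it in the complex, had signals of 11372 and 7268 (-0.65). Psmd8 was at -0.34, with signals of 636 and 504, Psmd13 at -0.30, with 1813 and 1470, and Psmd6 at 0.11. Over the lid, 1 gene was called at 1.5-fold in each direction, and 0 of the 17 subunits of the 19S particle were called at 2-fold.

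The assembly factors, which guide subunits into place and leave the finished complex, were within 2-fold where they were kept. Of 7 genes, 6 reached a signal of 100 on either array, with a median of -0.19. Psmg4 had signals of 305 and 162 (-0.91), and Psmg3, its partner in the chaperone pair, was at 83.1 and 66.5. Psmg1 and Psmg2, which form the other chaperone pair of the alpha ring, were at -0.03 (signals of 1096 and 1073) and 0.06 (370 and 387). Among the chaperones of the 19S base, Psmd10 (also named gankyrin) was at -0.44 (417 and 308), Psmd9 at -0.34 (490 and 387) and Psmd5 at 0.06 (306 and 318). A second probe set of Psmd10 gave -0.14.

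Of the 17 loci that share the symbol pattern only, 7 reached a signal of 100. Their differences ran from -0.23 to 0.67 with a median of 0.06. The highest was Psmc3ip, which encodes a partner of meiotic recombinases rather than a proteasome subunit, with signals of 109 and 174. Psme3ip1 was at 0.14, and the loci Psmb3l2, Psmd8-ps1, Psmb3-ps7 and Psma6-ps4 lay between -0.14 and 0.09. Psme3-ps3 had signals of 6738 and 5741 (-0.23). Whether its probes, or those of the second Psme3 probe set (219 and 185), are distinct from the Psme3 transcript was not tested. The other 10 were below 100 on both arrays, among them Psmb6-ps2 at 75.7 and 65.4.

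Psmb8 and Psmb9 lie within the MHC region, and the transporter genes Tap1 and Tap2 beside them had smaller differences. In the RefSeq gene table (assembly GRCr8) the order on chromosome 20 was Tap2, Psmb8, Tap1 and Psmb9, where Tap1 and Tap2 encode the transporter that carries peptides into the endoplasmic reticulum. The log2 differences in that order were -0.46, -1.24, -0.38 and -1.41. Tap2 had signals of 166 and 120, and Tap1 had signals of 233 and 179, so both were within 1.5-fold as deposited. After quantile normalization they were at -0.78 and -0.72, where the median of all kept genes was -0.34. On its other side Psmb9 is next to RT1-DMb, a class II chaperone gene, which had signals of 458 and 215 (-1.09). On chromosome 15, Psme1 and Psme2 were separated by the single gene Emc9.

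The region before the start site was examined for the members past 2-fold and for Psmb10, because these carry the differences described above. RefSeq start sites in the GRCr8 build were found for 43 of the 48 genes, and 250 bases upstream were searched on both strands for 2 motifs. These were TGACNNNGC, the core of the antioxidant response element bound by NFE2L1 and NFE2L2, and GAAANNGAA, the element bound by interferon regulatory factors. In the sequences below, written 5′ to 3′ on the strand of the gene and ending at the base before the start, capitals mark every match.
Psmb6 (chr10:55737638-55737887, + strand): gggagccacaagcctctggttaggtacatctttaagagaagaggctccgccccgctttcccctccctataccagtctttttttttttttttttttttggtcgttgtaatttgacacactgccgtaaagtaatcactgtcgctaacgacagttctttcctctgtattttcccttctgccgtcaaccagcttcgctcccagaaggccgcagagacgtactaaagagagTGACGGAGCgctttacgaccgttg
Psme4 (chr14:108706393-108706642, + strand): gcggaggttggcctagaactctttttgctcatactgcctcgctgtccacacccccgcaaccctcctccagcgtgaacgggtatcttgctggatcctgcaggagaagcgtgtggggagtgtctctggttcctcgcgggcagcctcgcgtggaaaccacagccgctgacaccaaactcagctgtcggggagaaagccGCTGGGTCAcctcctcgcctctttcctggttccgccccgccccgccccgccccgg
Psmb8 (chr20:4657032-4657281, - strand): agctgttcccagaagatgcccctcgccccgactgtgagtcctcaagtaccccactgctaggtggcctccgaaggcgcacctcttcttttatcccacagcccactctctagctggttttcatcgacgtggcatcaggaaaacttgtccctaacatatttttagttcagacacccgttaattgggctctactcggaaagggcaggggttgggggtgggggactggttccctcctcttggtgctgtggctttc
Psmb9 (chr20:4668750-4668999, + strand): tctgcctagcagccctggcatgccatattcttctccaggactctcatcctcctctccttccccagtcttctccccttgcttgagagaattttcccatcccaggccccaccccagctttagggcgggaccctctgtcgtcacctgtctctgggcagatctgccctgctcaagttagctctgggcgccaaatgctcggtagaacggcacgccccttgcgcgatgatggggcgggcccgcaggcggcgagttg
Psmb10 (chr19:50743293-50743542, - strand): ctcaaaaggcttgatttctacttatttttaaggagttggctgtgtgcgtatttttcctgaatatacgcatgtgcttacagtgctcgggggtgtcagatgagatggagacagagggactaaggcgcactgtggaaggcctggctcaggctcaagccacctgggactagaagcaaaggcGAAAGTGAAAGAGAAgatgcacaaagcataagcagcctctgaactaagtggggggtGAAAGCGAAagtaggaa

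Psmb6 and Psme4 both carried a match to the antioxidant motif. In Psmb6 it was TGACGGAGC at positions -24 to -16 from the start site, and in Psme4 it was GCTGGGTCA, on the opposite strand, at -55 to -47. Psmb10 held 3 matches to the interferon motif, GAAAGTGAA at -73 to -65, overlapped by GAAAGAGAA at -67 to -59, and GAAAGCGAA at -17 to -9. In Psmb8 and Psmb9 neither motif was found in this window. Among the members, no match overlapped one to a different motif. Over all 43 member promoters, the antioxidant motif was present in 7 (16.3%) and the interferon motif in 7 (16.3%). In all 33469 promoters of the table the shares were 10.1% and 8.12%. The other members with an antioxidant match, Psma3, Psmb2, Psmd1, Psmd9 and Psmb5, had differences between -0.52 and 0.54. The other members with an interferon match were Psmd11 (0.91), Psma4 (0.33), Psmb2 (0.08), Psmb3 (0.04), Psme2 (-0.28) and Psmd7 (-0.65), so members with a match were found on both sides of 0 for both motifs. A match describes these letters and not a bound site.

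Genes that act with the proteasome had a median near 0 as a list, with members on both sides of it and a standard deviation of 0.73. Of 28 genes of ubiquitin and proteasome function, 22 had a probe set with a single symbol and all of these were kept, with a median of -0.03, 11 positive and 11 negative. Zfand2a, which encodes a proteasome-associated protein known for its induction by arsenite in mammalian cells, had signals of 462 and 3309, 7.16-fold higher in the tumors (2.84). It was the 1 gene of this list called at 2-fold. Its relative Zfand5 was at 0.83, with signals of 868 and 1538. The subunit and maturation genes outside the symbol pattern, Adrm1, Sem1 and Pomp, were at 0.08, 0.06 and 0.21. The deubiquitinases of the 19S particle, Usp14 and Uchl5, were at 0.36 and -0.28. Nfe2l1 had signals of 672 and 570 (-0.24), and Nfe2l2 had signals of 2980 and 2634 (-0.18). Txnl1 had signals of 1906 and 2768 (0.54) and Ecpas signals of 3640 and 2246 (-0.70). Ddi2 and Ngly1, which process the NFE2L1 protein, were at -0.72 and -0.24. The ubiquitin-activating enzyme gene Uba1 was at -0.40.

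Partners of the immunoproteasome in class I antigen processing did not share one direction. Over 10 genes the median was -0.32, with 7 negative differences, against 55.6% negative among all kept genes. In each direction 1 of the 10 was called at 2-fold, close to the shares of all kept genes (8.90% higher and 10.6% lower). Tapbp (tapasin), which loads peptides onto class I molecules, had signals of 1882 and 735, 2.56-fold lower in the tumors (-1.36), and its relative Tapbpl was at -0.95. Nlrc5, a transactivator of class I genes and of immunoproteasome genes, had signals of 220 and 1048, 4.77-fold higher (2.25). B2m, the light chain of class I molecules, had signals of 17057 and 18401 (0.11). The chaperones Calr, Pdia3 and Canx were at -0.33, -0.07 and 0.09, and the trimming peptidase Erap1 was at -0.30.

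Interferon response genes were lower as a list, as the immunoproteasome genes were. Of 15 genes, 14 had a probe set and 12 were kept. Their median was -0.94, with 11 negative differences, against 55.6% negative among all kept genes. At least 2-fold lower were 6 of the 12, against 10.6% of all kept genes. Isg15 (signals of 124 and 84.6) and Oas1a (145 and 80.3) reached 100 only on the Control array, which fixed their sign. Irf1, a transcription factor that induces Psmb9 in human and mouse cells, had signals of 654 and 282, 2.32-fold lower (-1.21). Gbp2, Ifit2, Mx2 and Stat2 were at -1.27, -1.27, -1.05 and -1.02, and Ifi27, with signals of 3382 and 879, was the lowest at -1.94. Cxcl10 went the other way, with signals of 196 and 343 (0.81). Leukocyte markers were lower beside these genes. The differences were largest for Cd4 (signals of 2875 and 239, a log2 difference of -3.59), Cd3g (864 and 156, -2.47), Laptm5 (1194 and 262, -2.19) and Csf1r (714 and 235, -1.60). Ptprc, the pan-leukocyte antigen, had signals of 369 and 201, and Cd74, the class II invariant chain, had signals of 3239 and 1410. Cd3d, Cd3e, Cd8a, Ms4a1 and Itgam were below 100 on both arrays, and Cd68 was at 0.24. The part of leukocytes in the immunoproteasome differences was not tested.

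**Figure D4:**
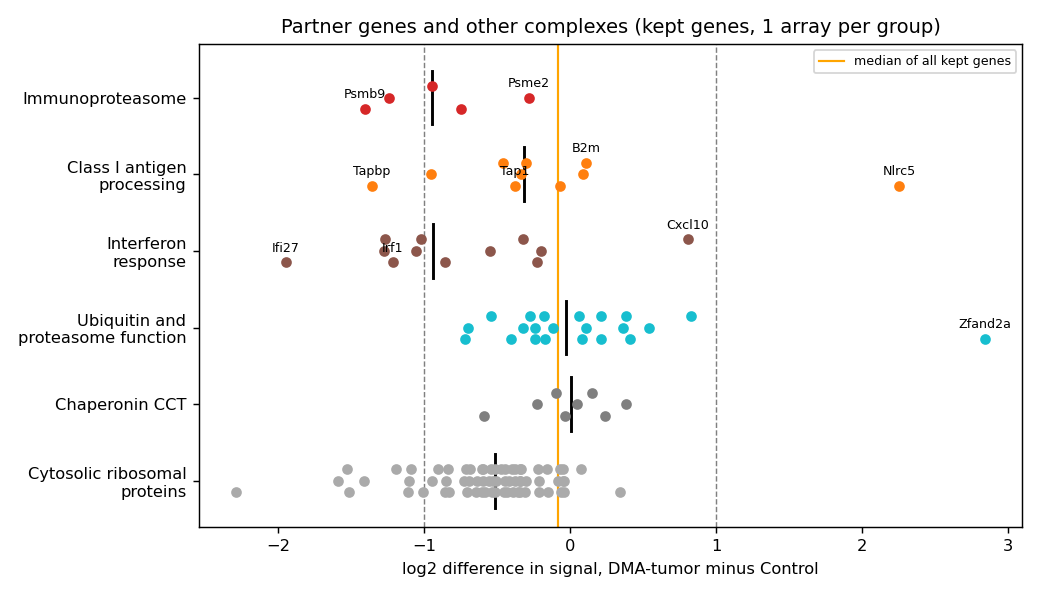
Log2 difference (DMA-tumor minus Control) for the kept genes of the immunoproteasome, of 3 lists of partner genes and of 2 other complexes, with 1 point per gene, black bars at list medians, an orange line at the median of all kept genes (-0.08) and dashed lines at 2-fold. The immunoproteasome and interferon response lists have their medians near -0.95 and -0.94, while Nlrc5 (2.25) and Zfand2a (2.84) lie far to the right of their lists.

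Other abundant complexes gave 2 different pictures. The 8 subunits of the chaperonin CCT, which folds actin and tubulin, had a median of 0.00 and ranged from -0.59 to 0.38. The 67 cytosolic ribosomal proteins had a median of -0.51, with 65 negative differences and 10 genes (14.9%) at least 2-fold lower, against 10.6% of all kept genes. Among these 10, Rps4y2 had a signal of 26.8 in the tumors, under 100. The others each had 2 or 3 probe sets, of which the highest stood for the gene and the rest were not compared. With a median of -0.09 over its 31 core and 19S subunits, the constitutive proteasome lay nearer to the chaperonin than to the ribosome. With 1 array per group these differences between complexes could not be tested.

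The contrast between constitutive and induced subunits was similar under each scaling tried between the arrays. Quantile normalization moved the median of all kept genes by -0.26, and the loess trend over all probe sets moved it by -0.11, so the values are best read against that median. Relative to it, the immunoproteasome median was -0.87 as deposited, -0.83 after loess over all probe sets, -0.86 after loess over the kept genes and -0.89 after quantile normalization. The core median, relative to that of all kept genes, was 0.06, -0.02, 0.06 and 0.12 in the same order, so its sign was not settled. That of the 19S particle was -0.10, -0.08, -0.14 and -0.04. The number of members at least 2-fold lower was 3 as deposited, 6 after loess over all probe sets and 5 after quantile normalization, with 1 member at least 2-fold higher in each.

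**Figure D5:**
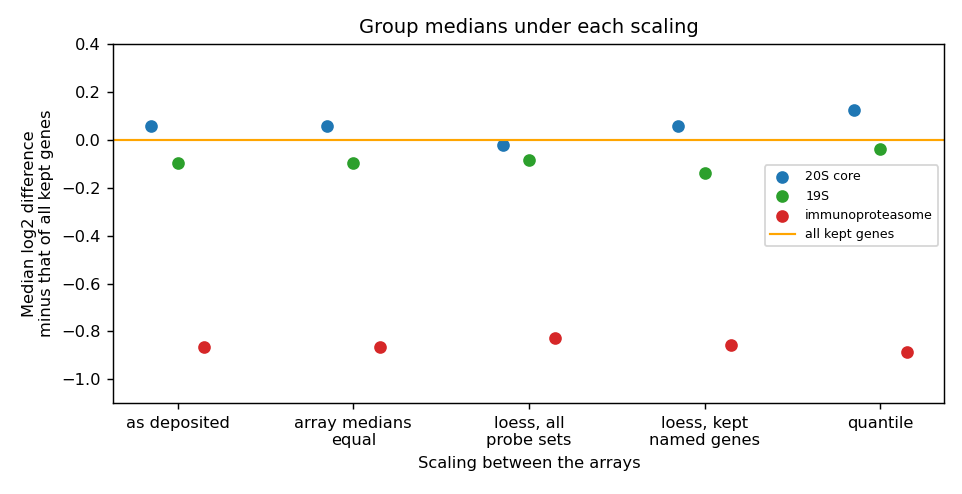
Median log2 difference of each group minus that of all kept genes (vertical axis) under 5 scalings between the arrays (horizontal axis), with points for the 20S core, the 19S particle and the immunoproteasome and an orange line at 0. The immunoproteasome stays between -0.89 and -0.83 in all 5, and the other groups stay between -0.14 and 0.12.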

How the data were processed

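Gene expression in pooled bladder RNA of male rats was measured on 2 arrays, Control and DMA-tumor. Per the labels, RNA was extracted with TRIzol and biotin-labelled with the WT PLUS kit. The submitters' processing notes list Affymetrix Expression Console 1.4.1 and RMA, whereas the methods name another array, global median normalization and removal of signals under 100. The authors deposited probe set intensity values that are linear, between 5.60 and 820532, with medians of 50.6 and 52.3, and which normalization was applied is unsettled. Log2 was taken of each value without further scaling. The table had 0 columns of other series.

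Names came from the platform's annotation table (23446 with 1 symbol, 505 with several, 44891 with none listed, which are unnamed here), and all 65 members were found in the RefSeq gene table. The probe set with the highest linear mean stood for each gene, and the 12074 of 22093 genes whose signal reached 100 on either array were kept. Z-scores were taken over the kept genes (mean -0.07, standard deviation 1.02). Every kept member is accounted for, and signals are given for catalytic, induced and activator genes, the extremes of each class and every member past 2-fold. The members, classes and lists were chosen with earlier results of these data known. Alternatives were other signal filters (none, 100 on both arrays, 32 on 1 array), centring, loess (span 0.3), quantile normalization, other choices of probe set, a floor of 100 and other thresholds. The fold calls and the loess scaling were run on simulated data with planted differences, which checks the code and not the findings. The software was Python 3.11.15 with statsmodels 0.14.6, pandas 2.3.3, numpy 2.4.6 and matplotlib 3.10.9.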

Additional observations from a re-analysis of the deposited data

How the results depend on the processing

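With no replicates, a shift was set against the standard deviation of the log2 differences of 1276 olfactory and vomeronasal receptor genes (0.34), taken as silent in bladder. Over the alternatives for filter, scaling, probe set and floor, the medians of the core, the 19S particle, the immunoproteasome and all members, and both contrasts with the immunoproteasome, shifted by less than this. That limit is a spread of single genes at low signal, so it is loose for medians and does not show that they are stable. The immunoproteasome median, -0.95 as deposited, was -1.23 after quantile normalization and -0.85 after loess over the kept genes. The contrast of the core with the immunoproteasome ran from 0.81 to 1.01. The median of all members ran from -0.34 to -0.02 and that of the core from -0.22 to 0.06.

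The number of members at least 2-fold lower was 6 after loess over all probe sets (Psmb10, Psmd7 and Psmg4 added) and 5 after quantile normalization (Psmb10 and Psmg4 added), where 13.5% and 16.4% of all kept genes were that low. At 1.5-fold, 4 members were higher and 8 lower, and with the Z-score 0 were higher and 0 lower. The immunoproteasome median was -0.52 over Psme1 and Psme2 alone and -1.24 over Psmb8, Psmb9 and Psmb10 alone. Of 460 values of single genes under an alternative, 5 shifted by more than 0.34, all after loess over all probe sets (Psmb2, Psmb7, Psmc1, Psmd2 and Psmd7). The cause of these shifts was not tested. No paired analysis was possible because each group had 1 array, and for the same reason no replicate could be left out.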
